A study of Mus musculus with 21 samples.

Results

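The 6 genes described here encode enzymes that move nitrogen between glutamate and asparagine, alanine, proline, aspartate and glutamine: Asns, Gpt2, Aldh18a1, Got1, Got2 and Glul. They were chosen by name and found by matching the RefSeq accession of each array probe to its gene symbol. All 6 were found, among 20145 gene symbols on the array, each with 1 probe. Levels are log2 signals relative to the 75th percentile of the same array, so they compare arrays for 1 gene and not genes with each other.

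Mouse MIN6m9 cells, a line derived from insulin-producing beta cells, were profiled on 21 one-colour arrays. For the fatty acids, wild-type (WT) cells received 400 uM Palmitate, a saturated fatty acid, or 400 uM Oleate, a monounsaturated one, for 48 h, or were left untreated, with 3 arrays for each. For PERK, Fv2E-PERK cells received mock, which the treatment protocol gives as the vehicle ethanol, or 1 nM AP20187 for 6, 12, 24 or 48 h, and WT cells received mock, with 2 arrays for each. Fv2E-PERK is an introduced form of the stress kinase PERK that the small molecule AP20187 dimerises and so switches on. The labels do not give the promoter that drives it, whether the line is a clone, or the harvest times of untreated and mock cells. WT cells with AP20187 are not analysed here, so effects of AP20187 outside the introduced kinase cannot be told apart from those through it. Nothing in the labels says that replicates were separate cultures, so the p-values here reflect the spread of these arrays alone, possibly a technical one.

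Asns, asparagine synthetase, transfers the amide nitrogen of glutamine to aspartate. Gpt2, the mitochondrial alanine transaminase, and Got1 and Got2, the cytosolic and mitochondrial aspartate transaminases, exchange amino groups between glutamate and other keto acids, and the Got pair also serves the malate-aspartate shuttle that carries reducing equivalents into mitochondria. Aldh18a1 turns glutamate into the shared precursor of proline and ornithine, and Glul, glutamine synthetase, joins ammonia to glutamate. When PERK phosphorylates eIF2alpha, general translation slows while the transcription factor ATF4 is made, and ATF4 with C/EBP partners binds composite DNA elements in many amino acid genes, of which Asns is the textbook case.

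The upstream sequences of the 4 genes that rose together with AP20187 are shown because such elements lie in promoters. Each run is the 250 bases before the RefSeq transcription start in mouse GRCm38.p6, written on the gene's own strand, with capitals at any match to the composite element TGATGNAA on either strand. Asns spans chr6:7693210-7693459 on the minus strand, Got1 chr19:43524606-43524855 on the minus strand, Gpt2 chr8:85492326-85492575 on the plus strand, and Aldh18a1 chr19:40588464-40588713 on the minus strand.
Asns: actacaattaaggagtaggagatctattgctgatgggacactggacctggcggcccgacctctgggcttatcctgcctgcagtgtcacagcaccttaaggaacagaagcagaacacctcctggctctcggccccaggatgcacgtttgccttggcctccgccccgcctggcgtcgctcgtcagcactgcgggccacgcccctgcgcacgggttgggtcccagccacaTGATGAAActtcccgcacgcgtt
Got1: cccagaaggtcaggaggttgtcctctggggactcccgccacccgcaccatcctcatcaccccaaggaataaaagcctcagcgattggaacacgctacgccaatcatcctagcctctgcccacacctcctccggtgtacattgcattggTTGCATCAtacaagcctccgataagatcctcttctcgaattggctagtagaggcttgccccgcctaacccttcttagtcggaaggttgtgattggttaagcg
Gpt2: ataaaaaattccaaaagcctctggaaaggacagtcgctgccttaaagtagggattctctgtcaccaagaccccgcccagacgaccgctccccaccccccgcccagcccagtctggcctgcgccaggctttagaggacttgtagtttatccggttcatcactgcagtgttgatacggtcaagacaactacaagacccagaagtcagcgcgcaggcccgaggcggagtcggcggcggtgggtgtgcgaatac
Aldh18a1: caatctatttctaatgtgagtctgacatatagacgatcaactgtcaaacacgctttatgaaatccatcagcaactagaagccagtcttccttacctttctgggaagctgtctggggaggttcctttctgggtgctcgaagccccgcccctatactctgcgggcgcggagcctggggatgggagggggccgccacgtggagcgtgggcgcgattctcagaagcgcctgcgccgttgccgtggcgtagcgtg
Asns held the match TGATGAAA on its own strand, 23 to 16 bases before the start. Got1 held TGATGCAA on the opposite strand, 102 to 95 bases before the start. No match stood in the windows of Gpt2, Aldh18a1, Got2 or Glul, which says only that these letters are not in those windows. In windows of 300 bases, which add 50 bases after the start, 2 of the 6 members held the motif, beside 1304 of 32851 promoters (3.97%). A match describes the sequence and is not a measured binding site.

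All 6 genes were well above background on every array, and 0 spots were saturated. Correlations between replicate arrays, taken over genes that are no independent replicates, were 0.978 to 0.996. Untreated replicate 2 stood apart: the SD of its log2 difference from the other untreated arrays was 0.688 and 0.665, against 0.290 to 0.390 within all other replicate pairs. Markers of beta cells were above background for 9 to 11 of 11 genes on each array. Those of liver were so for 2 to 3 of 6, exocrine pancreas for 1 to 2 of 5, other islet cells for 4 of 4, and mesenchymal, endothelial or immune cells for 2 to 4 of 6. In the fatty acid experiment heart muscle markers moved with the groups. Their summed log2 level was -0.14 to 0.98 on palmitate arrays, 4.23 to 4.43 on oleate arrays and 4.12 to 4.49 on untreated arrays, with 2 to 6, 9 to 10 and 9 of 10 genes above background. The defining genes Tnnt2, Tnni3 and Mybpc3 were above background on 0 palmitate arrays and on all 3 oleate and all 3 untreated arrays. Ryr2, also on that list, went the other way, with mean levels of -0.52 with palmitate, -0.96 with oleate and -1.12 in untreated cells. Skeletal muscle markers had summed levels of 0.88 to 4.74 on palmitate arrays, 1.27 to 1.33 on oleate arrays and 1.29 to 1.51 on untreated arrays, with 6 to 11, 7 and 6 to 7 of 12 genes above background, the high values lying on palmitate replicates 1 and 2.

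Activation of Fv2E-PERK was followed by higher levels of Asns, Gpt2, Aldh18a1 and Got1 at each of 6, 12, 24 and 48 h, and by a deep fall of Glul. Got2 fell at 6 and 12 h, did not pass the test at 24 h and rose at 48 h, though its falls were not seen when arrays were scaled to spike-in controls. By limma with Benjamini-Hochberg adjustment over 23388 entries (adjusted p under 0.05), 4 of 6 members rose and 2 fell at 6 h, when 64.9% of all entries were called, 24.9% higher and 40.0% lower. At 12 h 4 rose and 2 fell, against 67.7% of all entries called (27.2% higher and 40.5% lower). At 24 h 4 rose and 1 fell, against 67.4% (27.0% and 40.4%). At 48 h 5 rose and 1 fell, against 61.8% (27.2% and 34.6%). With most of the array called, a member's call alone says little, and the sizes and courses carry the description. The median change of the 6 genes was 0.65, 0.67, 0.74 and 0.78 log2 units at the 4 times, where all entries had medians of -0.23, -0.19, -0.20 and -0.07. In bulk RNA, fewer cells with a transcript and less of it per cell cannot be told apart. The 4 times share the same 2 mock arrays.

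**Figure D1:**
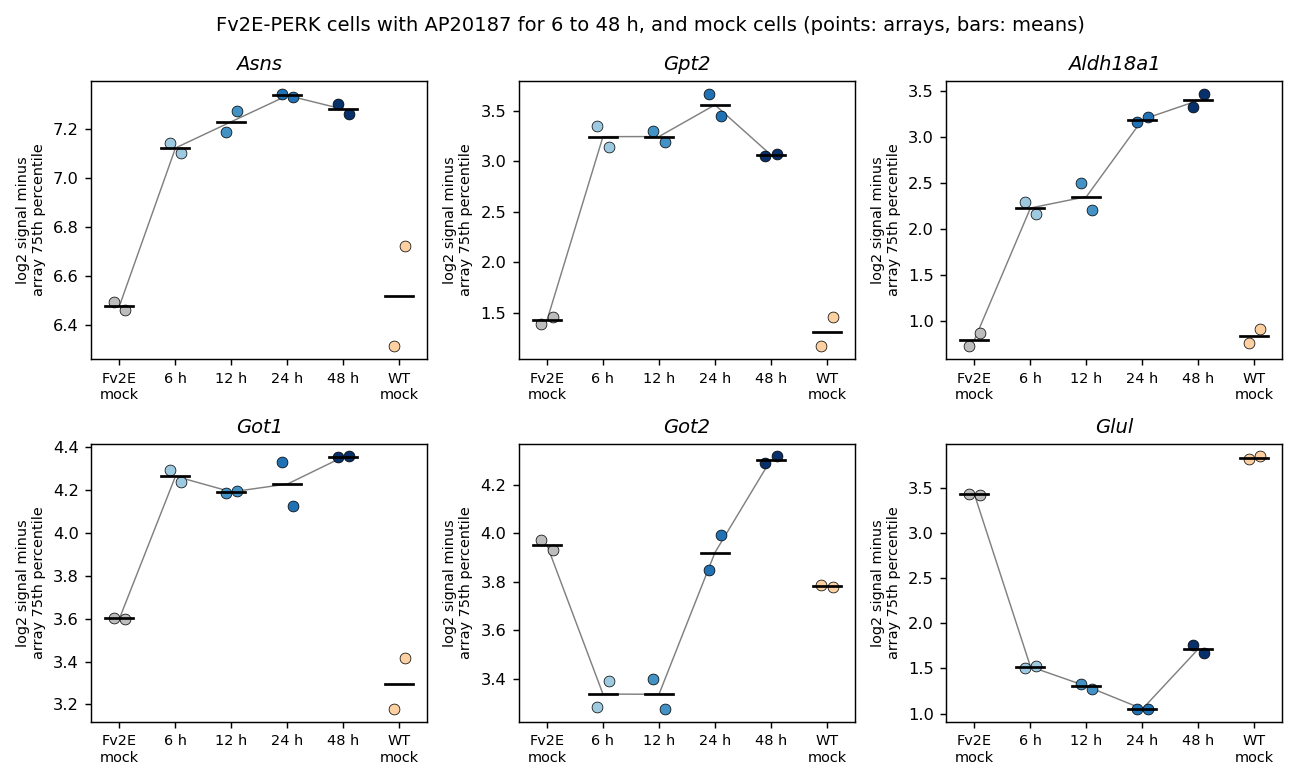
Log2 signal minus the array's 75th percentile (y axis) of each gene on every PERK array, by group (x axis): Fv2E-PERK mock, 6, 12, 24 and 48 h of AP20187, and WT mock. Points are arrays, bars are group means of 2 arrays, and the grey line joins the means of Fv2E-PERK cells; 4 genes step up by 6 h, Glul drops to between 1.05 and 1.76 with AP20187, against 3.42 and 3.43 in Fv2E-PERK mock cells, and Got2 dips and recovers under this scaling.

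Asns, which makes asparagine, had log2 signals of 6.49 and 6.46 in Fv2E-PERK mock cells, 7.14 and 7.10 after 6 h of AP20187, 7.18 and 7.27 after 12 h, 7.34 and 7.33 after 24 h, and 7.30 and 7.26 after 48 h. Every AP20187 array lay above both mock arrays. The levels at 12 and 48 h overlapped, and those at 6 h lay lowest among the 4 times. Asns rose by 0.64 ± 0.12 log2 units (SE, n = 2 and 2) at 6 h, 0.75 ± 0.12 at 12 h, 0.86 ± 0.12 at 24 h and 0.80 ± 0.12 at 48 h, or 1.56-, 1.68-, 1.81- and 1.74-fold, with adjusted p of 0.0018, 0.00071, 0.00034 and 0.00058. No step between times passed the test.

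Gpt2, which makes alanine in mitochondria, had log2 signals of 1.39 and 1.46 in Fv2E-PERK mock cells, 3.35 and 3.14 after 6 h of AP20187, 3.30 and 3.19 after 12 h, 3.67 and 3.45 after 24 h, and 3.06 and 3.07 after 48 h. It was 3.53-fold higher at 6 h and again 3.53-fold at 12 h, with a log2 change of 1.82 ± 0.13 each time (adjusted p = 9.8e-06 and 7.2e-06). The change was 2.14 ± 0.13 at 24 h, or 4.39-fold (adjusted p = 3.9e-06), and 1.64 ± 0.13 at 48 h, or 3.12-fold (adjusted p = 1.7e-05). The arrays at 24 h stood above all others and those at 48 h below the other AP20187 times, while 6 and 12 h overlapped. At 48 h Gpt2 was lower than at 24 h by a log2 change of -0.50 ± 0.13 (adjusted p = 0.013), a call lost without 24 h replicate 1, 48 h replicate 1 or 48 h replicate 2 (adjusted p = 0.056 to 0.073).

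Aldh18a1, at the entry to proline and ornithine synthesis, was higher at 48 h than at 6 h. Its log2 signals were 0.73 and 0.87 in Fv2E-PERK mock cells, 2.30 and 2.16 after 6 h of AP20187, 2.50 and 2.21 after 12 h, 3.16 and 3.22 after 24 h, and 3.33 and 3.47 after 48 h. Levels at 6 and 12 h overlapped, those at 24 h lay above both, and those at 48 h above those at 24 h. Against mock the log2 change was 1.43 ± 0.12 at 6 h (2.70-fold, adjusted p = 2.3e-05), 1.56 ± 0.12 at 12 h (2.94-fold, adjusted p = 1.1e-05), 2.39 ± 0.12 at 24 h (5.25-fold, adjusted p = 1.9e-06) and 2.60 ± 0.12 at 48 h (6.07-fold, adjusted p = 1.7e-06). The step from 12 to 24 h, 0.84 ± 0.12, passed the test (adjusted p = 0.0024), as did 48 h against 6 h, 1.17 ± 0.12 (adjusted p = 8.1e-05). The step from 24 to 48 h, 0.21 ± 0.12, did not (adjusted p = 0.18), and with spike-in scaling it was -0.27.

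The aspartate transaminases parted. Got1, the cytosolic enzyme, had log2 signals of 3.60 and 3.60 in Fv2E-PERK mock cells, 4.29 and 4.24 after 6 h of AP20187, 4.18 and 4.20 after 12 h, 4.33 and 4.12 after 24 h, and 4.35 and 4.36 after 48 h. It rose by 0.66 ± 0.10, 0.59 ± 0.10, 0.63 ± 0.10 and 0.75 ± 0.10 at the 4 times (1.58-, 1.51-, 1.54- and 1.69-fold, adjusted p = 0.00052, 0.0009, 0.00065 and 0.00027). All AP20187 arrays lay above both mock arrays, the 24 h arrays spanned those of 6 and 12 h, and no step between times passed the test.

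Got2, the mitochondrial enzyme, had log2 signals of 3.97 and 3.93 in Fv2E-PERK mock cells, 3.28 and 3.39 after 6 h of AP20187, 3.40 and 3.27 after 12 h, 3.85 and 3.99 after 24 h, and 4.29 and 4.32 after 48 h. The 6 and 12 h arrays lay below every other PERK array, the 24 h arrays spanned the mock ones, and the 48 h arrays lay above all. Got2 fell by 0.62 ± 0.08 at 6 h and by 0.62 ± 0.08 at 12 h (mock 1.53-fold higher at each time, adjusted p = 0.00026 and 0.00022). At 24 h the change was -0.03 (95% confidence interval -0.22 to 0.15, adjusted p = 0.75), and at 48 h it was 0.35 ± 0.08 (1.28-fold, adjusted p = 0.0053). The steps from 12 to 24 h (0.59 ± 0.08, adjusted p = 0.0022) and from 24 to 48 h (0.38 ± 0.08, adjusted p = 0.0055) passed, though with spike-in scaling they were 0.82 (adjusted p = 0.0503) and -0.091. Against 6 h, Got2 was higher at 48 h by 0.97 ± 0.08 (adjusted p = 3.2e-05). The direction against mock depended on the scaling. When arrays were scaled to 7 spike-in control probes, called spike-in scaling here, Got2 changed by 0.055 at 6 h and 0.080 at 12 h, neither called, and by 0.90 at 24 h (adjusted p = 0.0046). That scaling moved the median of all entries by 0.67, 0.70, 0.93 and 0.45 at the 4 times, and relative to its median Got2 stood at -0.39, -0.43, 0.17 and 0.42. It also made the rises of the other genes larger, so their fold sizes depend on the scaling. With it Asns rose by 1.31, 1.45, 1.79 and 1.25 at the 4 times, and Gpt2 by 2.49, 2.52, 3.06 and 2.09. Aldh18a1 rose by 2.10, 2.25, 3.32 and 3.05, and Got1 by 1.33, 1.29, 1.55 and 1.21, all called.

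Glul, which makes glutamine, had log2 signals of 3.43 and 3.42 in Fv2E-PERK mock cells, 1.51 and 1.53 after 6 h of AP20187, 1.33 and 1.27 after 12 h, 1.05 and 1.05 after 24 h, and 1.76 and 1.67 after 48 h. Every AP20187 array lay far below both mock arrays, and none of the groups overlapped. The falls against mock were log2 changes of -1.91 ± 0.07 at 6 h, -2.12 ± 0.07 at 12 h, -2.37 ± 0.07 at 24 h and -1.71 ± 0.07 at 48 h, so that mock cells were 3.75-, 4.36-, 5.19- and 3.27-fold higher (adjusted p = 6.5e-07, 3.5e-07, 2.3e-07 and 8.9e-07). With spike-in scaling the falls were smaller, at -1.24, -1.43, -1.45 and -1.26, and remained called. Its recovery from 24 to 48 h was 0.67 ± 0.07 (adjusted p = 0.00022), which was 0.19 and not called with spike-in scaling. The smaller step from 12 to 24 h, -0.25 ± 0.07 (adjusted p = 0.024), lost its call without any 1 of the 12 or 24 h arrays (adjusted p = 0.059 to 0.11) and without the filter on dim probes (adjusted p = 0.066), and it was -0.021 with spike-in scaling (adjusted p = 0.97). At 48 h Glul was above its 6 h level by 0.20 ± 0.07 (adjusted p = 0.029), a call lost without any 1 of the arrays of those times (adjusted p = 0.053 to 0.18) and with spike-in scaling (-0.022).

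Between times, 0 of 6 members passed the limma test at 12 h against 6 h, where 14.7% of entries were called (7.19% higher and 7.50% lower) and 1 member, Glul, had an unadjusted p under 0.05. At 24 h against 12 h 2 of 6 rose and 1 fell, beside 27.5% of entries (15.0% higher and 12.5% lower). At 48 h against 24 h 2 rose and 1 fell, beside 48.8% (25.6% higher and 23.1% lower), and at 48 h against 6 h 3 rose and 0 fell, beside 60.8% (33.2% higher and 27.6% lower). Over all times, the F test called each of the 6 genes (adjusted p = 8.4e-07 to 0.0011), as it did 86.9% of entries. The 48 h arrays and the WT mock arrays lay on a slide of their own, so for each comparison of 48 h with another Fv2E-PERK group slide and time cannot be told apart. Against WT mock cells on the same slide, a comparison chosen after the slide layout was seen, 48 h of AP20187 gave log2 changes of 0.76 for Asns, 1.75 for Gpt2, 2.56 for Aldh18a1, 1.06 for Got1, 0.52 for Got2 and -2.12 for Glul. Those 6 changes had the directions seen against Fv2E-PERK mock cells, and 5 rose and 1 fell, beside 63.8% of entries called (27.5% higher and 36.3% lower). That comparison differs in cell line as well as in treatment, and these cannot be told apart in it. Between the mock groups of the lines, Glul differed by -0.41, Got1 by 0.30, Got2 by 0.17, Gpt2 by 0.11, and Asns and Aldh18a1 by -0.04 each. Beside these results, the 11 beta cell markers had a median log2 level of 4.06 to 4.41 on AP20187 arrays. It was 5.88 to 5.99 on Fv2E-PERK mock arrays. The heart muscle list's summed level was 0.24 to 1.36 on AP20187 arrays and -0.60 to -0.47 on Fv2E-PERK mock arrays. Ryr2 was the brightest gene of that list there. Its mean level was 1.12, 0.79, 0.03 and -0.63 at the 4 times and -1.19 in Fv2E-PERK mock cells, so the sum leans on this gene. Of the list's 10 genes, 6 were above background on each 48 h array and 2 on each Fv2E-PERK mock array. Of 5 tested, 2, 3, 3 and 4 were called higher at the 4 times, and 1, 0, 0 and 0 lower. Myh6, Myl2 and Myl3 were above background on 0 Fv2E-PERK mock arrays, so any call of theirs rests on dim values there. Myh6 and Myl2 entered the test only through AP20187 groups, so their calls give no support of their own. Tnnt2 was above background on 0 AP20187 or Fv2E-PERK mock arrays. Tnni3 was so on 1 array at 48 h, and Mybpc3 on 1 at 12 h and 1 at 48 h. Summed levels on AP20187 and Fv2E-PERK mock arrays were 6.61 to 7.22 and 8.40 to 8.45 for liver markers, 4.90 to 5.54 and 6.02 to 6.05 for other islet cells, and -0.57 to 0.82 and -0.50 to -0.49 for the mesenchymal, endothelial and immune list. They were -0.09 to 0.59 and 0.65 to 0.69 for skeletal muscle markers. For exocrine markers they were -2.74 to -2.32 at 6 h, -2.53 to -2.35 at 12 h, -2.19 to -2.12 at 24 h and -1.28 to -1.19 at 48 h. On Fv2E-PERK mock arrays the exocrine level was -1.97 to -1.92. Of 2 tested exocrine genes, 0, 1, 1 and 2 were called higher and 1, 1, 1 and 0 lower at the 4 times. Only 1 exocrine gene was above background on each Fv2E-PERK mock array, against 2 on each array at 12, 24 and 48 h. A call of a gene dim in mock cells rests on dim values and gives no support of its own. The part of these markers in the results was not tested.

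Mock-treated Fv2E-PERK and WT cells, which lay on different slides, were compared to see what the transgenic cells show without AP20187. Glul alone passed, with log2 signals of 3.43 and 3.42 in Fv2E-PERK mock cells and 3.82 and 3.85 in WT mock cells, a change of -0.41 ± 0.07 (adjusted p = 0.0042), so WT was 1.33-fold higher. With spike-in scaling the change was -0.25 and not called. Got1 had 3.60 and 3.60 in Fv2E-PERK mock cells and 3.18 and 3.42 in WT mock cells, a change of 0.30 ± 0.10 that missed the threshold (adjusted p = 0.066). It passed with normexp (0.40, adjusted p = 0.019), without WT mock replicate 2 (0.42, adjusted p = 0.038) and without either 24 h array (adjusted p = 0.046). Got2 had 3.97 and 3.93 in Fv2E-PERK mock cells and 3.79 and 3.78 in WT mock cells, which did not overlap. Its change of 0.17 (95% confidence interval -0.02 to 0.35) did not pass (adjusted p = 0.18). Asns, Gpt2 and Aldh18a1 differed by -0.04 (95% confidence interval -0.32 to 0.24), 0.11 (-0.18 to 0.40) and -0.04 (-0.31 to 0.23), and their arrays overlapped. Thus 1 of 6 members was called, beside 20.0% of entries (9.23% higher and 10.8% lower). The summed level of other islet cell markers was 6.02 to 6.05 in Fv2E-PERK mock cells and 4.64 to 4.73 in WT mock cells, and its part was not tested.

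The fatty acid experiment asked which genes the saturated acid induces. Palmitate raised Asns, Gpt2 and Aldh18a1 and lowered Glul, while Got1 and Got2 did not pass against untreated cells. Of the 6 members 3 rose and 1 fell by limma over 21281 entries, of which 20.1% were called, 7.42% higher and 12.6% lower. Oleate changed 0 of 6 by limma, with 1 (Got2) at an unadjusted p under 0.05, where 0.836% of entries were called (0.334% higher and 0.503% lower). The median change of the members was 0.45 log2 units with palmitate and -0.08 with oleate, against -0.05 for all entries in each comparison. These comparisons share the untreated arrays.

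**Figure D2:**
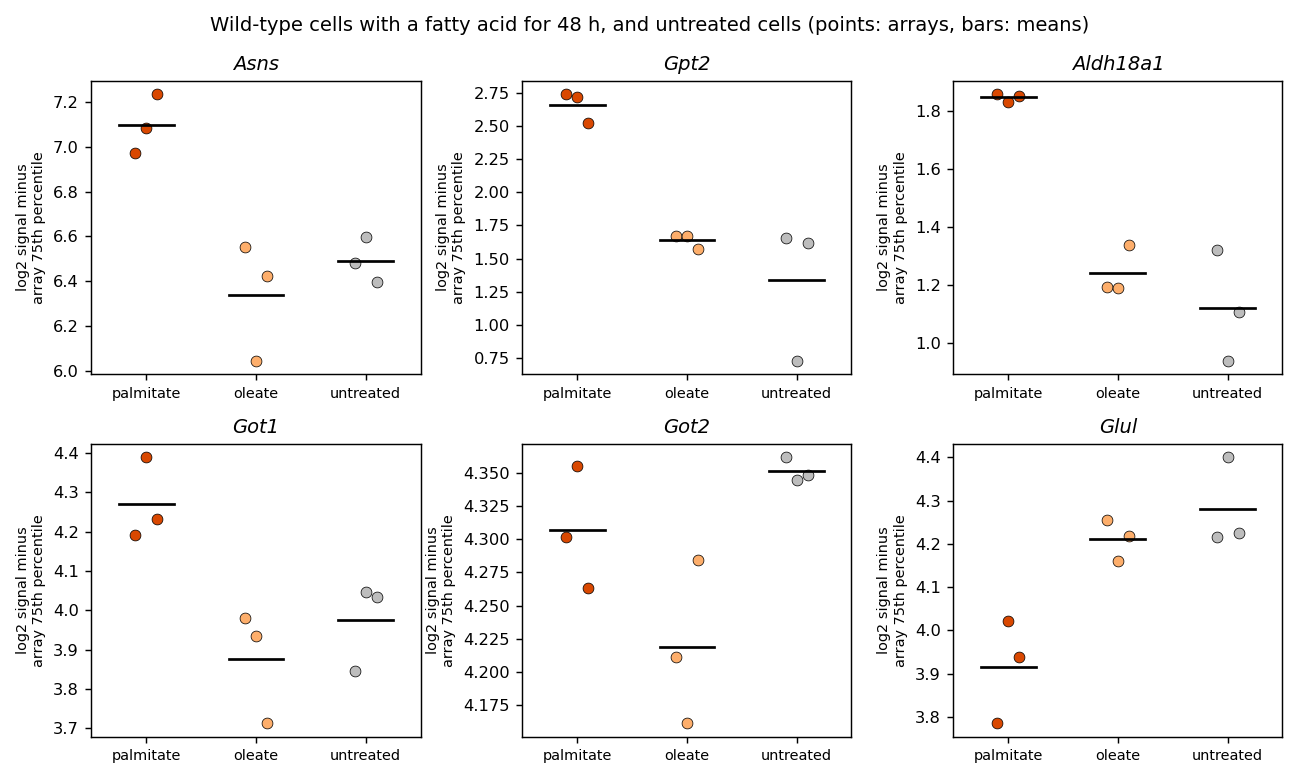
Log2 signal minus the array's 75th percentile (y axis) of each gene in palmitate-treated, oleate-treated and untreated wild-type cells (x axis). Points are arrays and bars are means of 3 arrays; palmitate arrays lie above the other 6 for Asns, Gpt2, Aldh18a1 and Got1, below them for Glul, and among them for Got2.

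Gpt2 showed the widest change of the 6. Its log2 signals were 2.74, 2.72 and 2.52 with palmitate, 1.67, 1.67 and 1.57 with oleate, and 1.65, 0.73 and 1.62 in untreated cells. The palmitate arrays lay above all others, and untreated replicate 2 lay lowest. The change with palmitate was 1.33 ± 0.23 (SE, n = 3 and 3; 2.51-fold, adjusted p = 0.0063), and 1.02 (adjusted p = 0.00058) without untreated replicate 2. With oleate it was 0.30 (95% confidence interval -0.22 to 0.82), and 0.00026 without untreated replicate 2.

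Aldh18a1 had log2 signals of 1.86, 1.83 and 1.85 with palmitate, 1.19, 1.19 and 1.34 with oleate, and 1.32, 0.94 and 1.11 in untreated cells. It rose by 0.73 ± 0.09 with palmitate (1.65-fold, adjusted p = 0.0021), or 0.63 without untreated replicate 2 (adjusted p = 0.0040). With oleate the change was 0.12 (95% confidence interval -0.10 to 0.34), or 0.028 without untreated replicate 2, and oleate and untreated arrays overlapped.

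Asns had log2 signals of 6.97, 7.08 and 7.23 with palmitate, 6.55, 6.04 and 6.42 with oleate, and 6.48, 6.60 and 6.40 in untreated cells. Every palmitate array was higher than the other 6. The change with palmitate was 0.61 ± 0.13 (1.52-fold, adjusted p = 0.017). The call was lost without untreated replicate 3 (0.56, adjusted p = 0.054) and without palmitate replicate 3 (0.54, adjusted p = 0.051), and held without untreated replicate 2 (0.66, adjusted p = 0.031). With oleate the change was -0.15 (95% confidence interval -0.46 to 0.16).

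Got1 had log2 signals of 4.19, 4.39 and 4.23 with palmitate, 3.98, 3.93 and 3.71 with oleate, and 3.85, 4.05 and 4.03 in untreated cells. The palmitate arrays did not overlap the others, yet the change of 0.30 ± 0.09 against untreated cells missed the threshold (adjusted p = 0.063). It passed with normexp (0.34, adjusted p = 0.028), with quantile normalization (0.36, adjusted p = 0.027) and without oleate replicate 3 (adjusted p = 0.047). With oleate the change was -0.10 (95% confidence interval -0.32 to 0.12). Got2 had 4.30, 4.35 and 4.26 with palmitate, 4.21, 4.16 and 4.28 with oleate, and 4.36, 4.34 and 4.35 in untreated cells, and its palmitate arrays overlapped both other groups. Its change was -0.04 (95% confidence interval -0.16 to 0.07) with palmitate and -0.13 (-0.25 to -0.02, adjusted p = 0.25) with oleate.

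Glul had log2 signals of 3.78, 4.02 and 3.94 with palmitate, 4.26, 4.16 and 4.22 with oleate, and 4.22, 4.40 and 4.22 in untreated cells. The palmitate arrays were the lowest of the 9. Glul fell by 0.37 ± 0.08 with palmitate (untreated 1.29-fold higher, adjusted p = 0.015), or by 0.31 without untreated replicate 2 (adjusted p = 0.042). With spike-in scaling, which moved the median of all entries by 0.19, the change was -0.18 and not called. With oleate it was -0.07 (95% confidence interval -0.25 to 0.11).

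The fatty acids were given at the same dose and time and were compared directly in 1 pair, with p-values adjusted over all entries. Palmitate has no double bond, and oleate has a double bond. Against oleate, palmitate was higher by 0.76 ± 0.13 for Asns (adjusted p = 0.0097), 1.02 ± 0.23 for Gpt2 (adjusted p = 0.023), 0.61 ± 0.09 for Aldh18a1 (adjusted p = 0.0057) and 0.40 ± 0.09 for Got1 (adjusted p = 0.031). Glul was lower by a log2 change of -0.30 ± 0.08 (adjusted p = 0.042), and Got2 differed by 0.09 (95% confidence interval -0.03 to 0.20). Thus 5 of 6 members were called, beside 13.7% of entries (7.48% higher and 6.27% lower). The calls of Asns and Aldh18a1 held whichever array was left out. That of Gpt2 was lost without any 1 of the oleate arrays or palmitate replicates 1 or 2 (adjusted p = 0.065 to 0.072), that of Got1 without any 1 of the 6 arrays compared (0.053 to 0.084), and that of Glul without any 1 of these except palmitate replicate 2, and without untreated replicates 1 or 3 (0.053 to 0.14).

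With palmitate replicate 3 as the only palmitate array, the one without high skeletal muscle markers and the only one on its slide, changes against untreated cells were 0.74 for Asns, 1.19 for Gpt2, 0.73 for Aldh18a1 and -0.34 for Glul. Of these only Aldh18a1 was called (adjusted p = 0.045), with the lone array taken to vary like the other groups. The part of the muscle transcripts in the fatty acid results was not tested. The summed level of the mesenchymal, endothelial and immune list, 0.09 to 0.21 on palmitate arrays, -0.67 to -0.54 on oleate arrays and -0.87 to -0.59 on untreated arrays, moved with the groups as well. Other islet cell markers had summed levels of 5.67 to 5.68 on palmitate arrays, 5.93 to 6.02 on oleate arrays and 5.93 to 6.01 on untreated arrays, with 2 of 4 higher and 1 lower with palmitate than in untreated cells, and 5 of 11 beta cell markers were lower with palmitate. The part of these lists was not tested either.

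**Figure D3:**
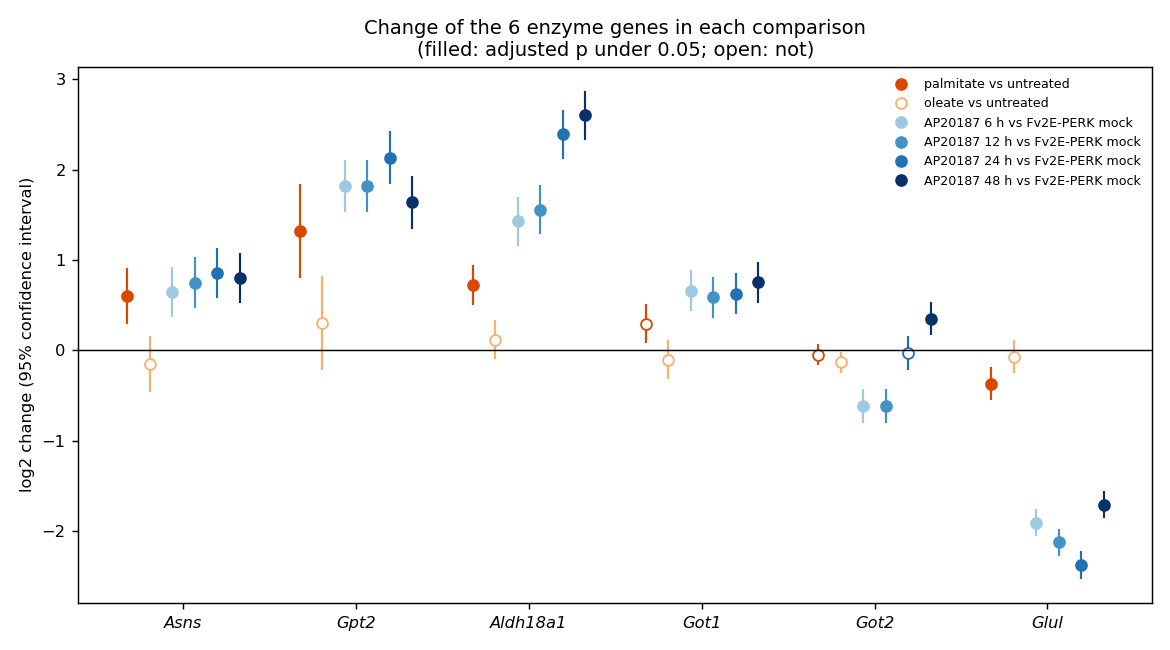
Log2 change (y axis) with its 95% confidence interval for each of the 6 genes (x axis) in 6 comparisons: palmitate and oleate against untreated, and AP20187 at 6, 12, 24 and 48 h against Fv2E-PERK mock. Filled points have an adjusted p under 0.05; Asns, Gpt2 and Aldh18a1 are above 0 and Glul below 0 with palmitate and at every AP20187 time.

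Side by side, palmitate and 48 h of AP20187 gave changes of 0.61 and 0.80 for Asns, 1.33 and 1.64 for Gpt2, 0.73 and 2.60 for Aldh18a1, 0.30 and 0.75 for Got1, -0.04 and 0.35 for Got2, and -0.37 and -1.71 for Glul. The experiments share no arrays, were fitted separately and were not tested against each other. A reference list of 13 stress response genes, including Atf4 and its targets, showed 12 rises and 0 falls with palmitate (median 1.00), 0 of either with oleate by limma (median 0.06), and 12, 11, 12 and 10 rises with 1 fall at the 4 AP20187 times (medians 1.40, 1.51, 1.78 and 1.59). Atf3, a stress-induced transcription factor, led it with 2.62 ± 0.09 for palmitate and 6.52 ± 0.08 at 48 h of AP20187.

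Genes that neighbour the 6 enzymes in the same pathways were described by 4 lists, to be read beside the calls among all entries. Those were 24.9%, 27.2%, 27.0% and 27.2% higher and 40.0%, 40.5%, 40.4% and 34.6% lower at the 4 AP20187 times. The medians of all entries were -0.23, -0.19, -0.20 and -0.07, or 0.45, 0.51, 0.72 and 0.38 with spike-in scaling. With palmitate 7.42% of entries were higher and 12.6% lower, and with oleate 0.334% and 0.503%. Of 11 genes of aspartate and asparagine metabolism, 9 were tested. With AP20187, 2 rose at each time and 3, 3, 4 and 2 fell, with medians of -0.12, -0.16, -0.12 and -0.19. The risers were Adsl and Adss, enzymes that use aspartate nitrogen for purine synthesis, at 1.05 ± 0.08 and 0.75 ± 0.08 at 6 h. Ass1, argininosuccinate synthetase, fell by 0.79 ± 0.10 and Asrgl1, an asparaginase, fell by 0.70 ± 0.11 at 12 h. With palmitate Nit2, an amidase, rose by 0.24 ± 0.06, Ass1 fell by 0.46 ± 0.07 and Asl, argininosuccinate lyase, fell by 0.34 ± 0.07. With oleate Asl fell by 0.40 ± 0.07. With spike-in scaling 2, 4, 6 and 2 genes were called higher and 0 lower at the AP20187 times, and 0 were called in either direction with either fatty acid, so that the call of Nit2 was lost too.

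Of 9 genes of proline and ornithine metabolism, 5 were tested with AP20187 and 4 in the fatty acid experiment, where none passed. Oat, ornithine aminotransferase, fell by 0.72 ± 0.13 at 6 h and by 0.89 ± 0.13 at 48 h, whereas with spike-in scaling 3, 3, 3 and 2 genes of the list were called higher and 0 lower at the 4 times. Aldh4a1, which returns the proline breakdown intermediate to glutamate, rose by 0.22 ± 0.08 at 6 h and fell by 0.55 ± 0.08 at 24 h. Arg2, the mitochondrial arginase, was well above background on no Fv2E-PERK mock array. It was at least 2.68-fold higher at 24 h and at least 2.50-fold higher at 48 h. Arg2 entered the test only through AP20187 groups in which it was above background. Its calls used the measured dim mock values and not the bound, so they give no support of their own. Pycrl, which completes proline synthesis, rose by 0.41 ± 0.11 at 24 h. Arg2 was left out of the counts at 12 h, where its bound shows no rise. On that basis 1, 0, 2 and 1 genes rose and 1, 2, 2 and 2 fell at the 4 times. Over all 5 genes, with Arg2 at its measured dim values, the medians were 0.13, 0.06, 0.06 and -0.21. With Arg2 at its bound, or left out where no bound could be given, they were 0.15, -0.12, 0.06 and -0.21. Arg2 is counted among the rises at 24 h and is the only rise at 48 h.

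Of 22 genes of glutamate, glutamine and transamination, 18 were tested with AP20187 and 17 with the fatty acids. Gfpt2 was left out of the counts at 6 and 12 h, where its bounds show no rise. On that basis 8, 6, 8 and 5 rose and 5, 8, 7 and 9 fell at the 4 times. Over all 18 genes, with Gfpt2 at its measured dim mock values, the medians were 0.26, 0.13, -0.01 and -0.27. Bcat1, the cytosolic branched-chain transaminase, rose by 1.09 ± 0.14 at 6 h and 1.61 ± 0.14 at 48 h, and by 0.79 ± 0.08 with palmitate. Gfpt2, which uses glutamine for hexosamine synthesis, was above background on no Fv2E-PERK mock array and was at least 1.91-fold higher at 24 h and at least 2.41-fold higher at 48 h, whereas its paralogue Gfpt1 fell by 1.33 ± 0.12 at 24 h. Like Arg2, Gfpt2 entered the test only through AP20187 groups, and it is counted among the rises at 24 and 48 h. Glud1, glutamate dehydrogenase, rose by 0.63 ± 0.08 at 6 h. Of the enzymes of GABA, Gad2, which makes it from glutamate, fell by 1.85 ± 0.27 and Abat, which breaks it down, by 1.21 ± 0.09 at 48 h. With palmitate Gad2, 2.14-fold higher in untreated cells, and Abat, which fell by 0.62 ± 0.12, moved the same way, and in all 2 genes rose and 3 fell (median -0.03). With oleate 1 gene fell, Aldh5a1, which acts on the product of Abat (-0.45 ± 0.06). With Gfpt2 at its bound, or left out where no bound could be given, the AP20187 medians were 0.23, 0.08, -0.01 and -0.27. Under spike-in scaling 12, 10, 11 and 7 were called higher and 0, 1, 0 and 2 lower at the AP20187 times (medians 0.93, 0.83, 0.91 and 0.19), and 1 higher and 1 lower with palmitate.

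The malate-aspartate shuttle and glutamate carriers, the list nearest to Got1 and Got2, had 7 of 8 genes tested. With AP20187 0 rose and 5, 6, 5 and 5 fell, with medians of -0.71, -0.86, -0.75 and -0.45, but with spike-in scaling 1, 0, 0 and 1 fell and 2 rose at 24 h. Mdh1, the cytosolic malate dehydrogenase, fell by 1.36 ± 0.13 at 6 h, and Slc25a11, the oxoglutarate carrier, by 1.25 ± 0.08 at 48 h. Mdh2, the mitochondrial malate dehydrogenase, fell by 1.04 ± 0.09 at 12 h. Thus Got1 rose while 5 or 6 of these genes fell at the same times under the percentile scaling, and Got2 fell with them at 6 and 12 h but not at 24 and 48 h. By limma 0 of 7 passed with palmitate (median -0.10) and 0 of 7 with oleate (median -0.09).

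**Figure D4:**
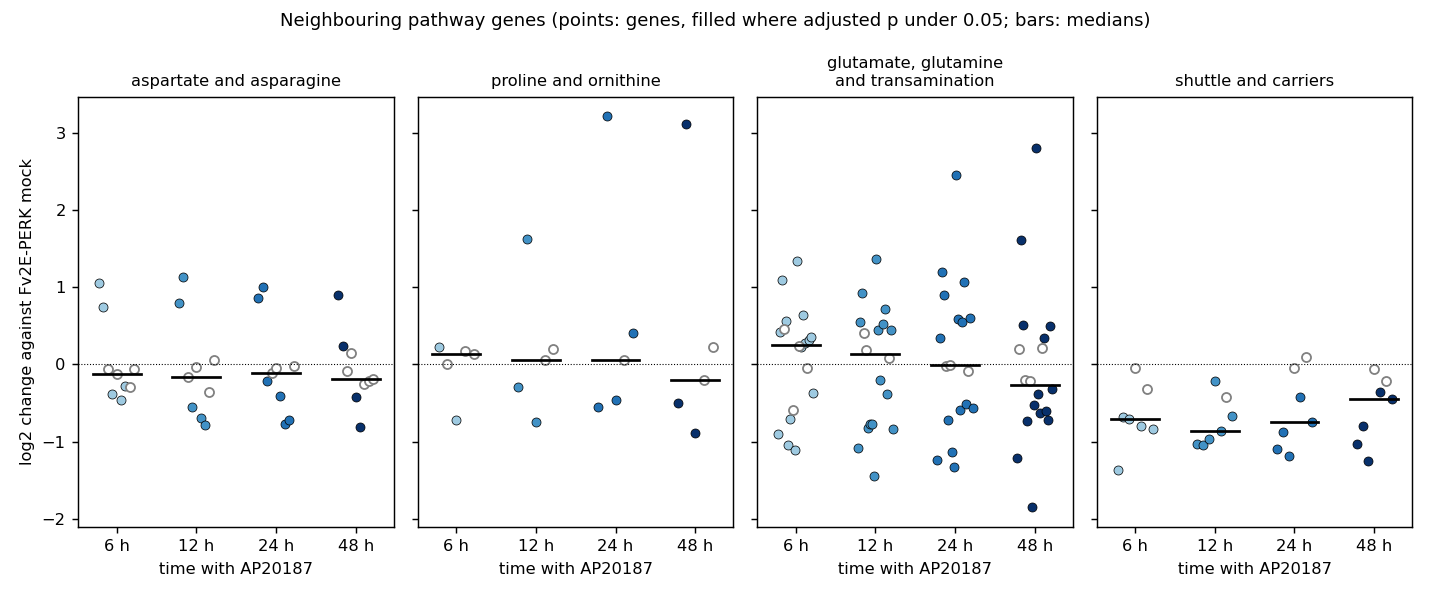
Log2 change against Fv2E-PERK mock (y axis) of each tested gene of the 4 neighbouring lists at 6, 12, 24 and 48 h of AP20187 (x axis). Points are genes, filled where the adjusted p was under 0.05, and bars are medians; the shuttle and carrier medians lie below 0 at all 4 times under this scaling, while the other lists hold genes on both sides.

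Across the 12 PERK arrays, which fall into 6 groups of 2 replicates scaled alike, the most similar patterns were sought among 7899 entries whose group means spanned at least 1 log2 unit. Asns was most like Klk1b24 (Pearson r = 0.991), Zfp598 (0.987) and Psph (0.986). Gpt2 was most like Bms1 (0.994), Mettl2 (0.993) and Srsf2 (0.993), and Aldh18a1 like Nop14 (0.994), Gabpb1 (0.994) and Utp4 (0.993). Got1 was most like Slc7a1 (0.992), Fam168b (0.992) and Trip13 (0.984), and Got2 like Cuta (0.987), Gnmt (0.984) and Tgfb1 (0.984). Glul was most like Tnfsf9 (0.997), Slc40a1 (0.997) and Tmem59 (0.995). These values describe shape over few groups. Among the members themselves, Gpt2 and Glul ran opposite (r = -0.990), and Got2 had r of -0.21 to 0.22 with each of the other 5.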

How the data were processed

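Total RNA was labelled with Cy3 and hybridised to 21 arrays, per the labels' protocols. The deposited scanner files hold spot intensity on a linear scale, background-subtracted in Agilent Feature Extraction (version 10.7.1.1 per the submitters' processing notes), with 0 or 1 flags per spot, per the file headers. The deposited series matrix holds log2 values used only as an alternative, and how each probe was centred is unknown. Apart from a constant per probe, its arrays differed from the percentile scaling by -0.0017 to 0.0019 in the PERK experiment. In the fatty acid experiment they differed by -0.19 to 0.49. Its column medians ran from -0.27 to 0.35 in the fatty acid and -0.32 to 0.33 in the PERK experiment, and 10480 to 17661 of 55681 probes were blank on each fatty acid array.

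The members and gene lists were chosen with earlier results of these data known. Control and outlier spots were left out, and the log2 mean of each probe's processed intensity was set relative to the 75th percentile of its array. Accessions gave 26582 probes a symbol (RefSeq, GRCm38.p6) and 29099 none; Pycr1 and Cd68 had no matched probe. The brightest probe stood for a gene. Entries that stood well above background throughout a group were tested with limma 3.58.1 (R 4.3.3; lmFit, eBayes), 1 coefficient per group, with adjusted p under 0.05 as a call. The method was tested on simulated data. Where a whole group was dim the fold is a bound, against the higher of the lowest signal above background and the dim value.

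Named were all 6 members, from each list up to the 3 largest called changes per direction and comparison, and the 3 most similar patterns per member. Groups and replicates came from titles; 1 WT mock array's source name carries another replicate number. Same-numbered arrays correlated in their deviations at -0.03 to 0.04 (fatty acid) and -0.01 to 0.13 (PERK), so numbers were not taken as pairs. Fatty acid arrays lay on 1 slide except palmitate replicate 3; Fv2E-PERK mock, 6, 12 and 24 h arrays shared another. Signal at the 75th percentile was 336 to 823 against a median background of 18 to 26, and precision is limited by how few arrays there are. Alternatives were normexp (a background model, on median signals), quantile, spike-in scaling (7 probes), the matrix, no filter, separate probes, blocks and leaving out arrays.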

Additional observations from a re-analysis of the deposited data

How the results depend on the processing

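The 23 calls of members against Fv2E-PERK mock cells kept direction and side of the threshold in 458 of 460 repeats; the 2 exceptions are Got2 with spike-in scaling, at 0.055 (6 h) and 0.080 (12 h). Over all comparisons, 860 of 929 repeats of called member results did so. In the PERK experiment many repeats could hardly move a call, so these counts overstate how firm the calls are. Most arrays left out lay outside the comparison at hand, and each member had only 1 probe to test separately. There, the series matrix values also followed the percentile scaling closely. For palmitate against oleate the count of 5 called members became 3 with spike-in scaling, 0 with the series matrix values, 2 without the filter on dim probes, 3 with slide as a block and 0 without palmitate replicates 1 and 2, and 2 to 5 when leaving out 1 array. For palmitate against untreated, 4 became 1 with the series matrix values and 1 without palmitate replicates 1 and 2, and 3 to 5 when leaving out 1 array. With spike-in scaling 24 h against 12 h gave 1 and 48 h against 24 h gave 1, where leaving out 1 array gave 2 to 3 each, as for 48 h against 6 h. Fv2E-PERK against WT mock gave 2 with normexp, 0 with spike-in scaling and 1 to 2 when leaving out 1 array. Calls among all entries changed as well. For palmitate against oleate they were 2926 of 21281 at first, 1471 with spike-in scaling and 409 with the matrix values. Without the filter they were 1398 of 37208, and with slide as a block 2079. For palmitate against untreated 4268 became 549 with the matrix values. With spike-in scaling they went from 6439 to 1783 at 24 h against 12 h. At 48 h against 24 h they went from 11402 to 8507, and between mocks from 4679 to 1447. The cause was not tested. Slide as a block took the calls of Asns with palmitate against untreated (adjusted p = 0.051) and of Got1 and Glul against oleate (0.062 and 0.083).

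Small changes turned sign. With quantile normalization these were Got2 with palmitate against untreated (0.019), at 24 h against mock (0.058) and 12 h against 6 h (0.0098); Asns at 24 h against 12 h (-0.11), 48 h against 24 h (0.065), 48 h against 6 h (-0.031) and between mocks (0.10); and Got1 at 24 h against 12 h (-0.039). With spike-in scaling Got2 gave 0.14 with palmitate against untreated, 0.90 at 24 h against mock, 0.025 at 12 h against 6 h and -0.091 at 48 h against 24 h. Likewise Got1 gave -0.35 and Aldh18a1 -0.27 at 48 h against 24 h, Asns -0.062, Got1 -0.13 and Glul -0.022 at 48 h against 6 h, and between mocks Asns and Aldh18a1 0.12 each. In the series matrix values Got2 gave -0.20 for palmitate against oleate. Leaving out 1 array spread uncalled differences across 0: between mocks Gpt2 -0.037 to 0.26, Asns -0.25 to 0.17 and Aldh18a1 -0.11 to 0.032; at 12 h against 6 h Gpt2 -0.11 to 0.11, Got2 -0.062 to 0.060 and Aldh18a1 -0.022 to 0.27; Got2 at 24 h against mock -0.10 to 0.041; and Got1 at 24 h against 12 h -0.067 to 0.14.

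With the replicate number as a block, palmitate against untreated kept 4 called members, palmitate against oleate had 4 (Glul lost its call, adjusted p = 0.064), and no other member's call changed. With that block 3605 and 2451 of all entries were called in these 2 comparisons. In the PERK experiment slide as a block was not run, because each group lay on 1 slide. The slide of 6 to 24 h and Fv2E-PERK mock was fitted alone, a choice made after seeing the data. By limma it gave 6, 6 and 5 called members against mock at 6, 12 and 24 h, beside 14629, 15309 and 15220 of all entries. Only Glul at 24 h against 12 h lost its call (adjusted p = 0.059).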
